A study of Homo sapiens with 2 samples.

Results

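The strong FLAG-wt-Cdx1 binding sites that had no FLAG-wt-Cdx2 site beside them were examined in human colon cancer cells. They were selected on measured values, namely a pileup of at least 15 fragments at the summit of an autosomal FLAG-wt-Cdx1 peak and no FLAG-wt-Cdx2 summit within 1000 bp. A block of chromosome 8 from 121 to 139 Mb, where the FLAG-wt-Cdx1 background was raised, was left out. In total, 4589 of the 196910 FLAG-wt-Cdx1 peaks met this rule, and they are called lone Cdx1 peaks below. The remaining 13994 of the 18583 strong peaks in the same regions had a FLAG-wt-Cdx2 summit within 1000 bp and are called accompanied. Since pileup and nearness of FLAG-wt-Cdx2 chose the peaks, these values are given as a description.

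DLD1-TetOff cells are a DLD1 (CCL-221) colon cancer line with a doxycycline (DOX)-repressed transactivator, and each ChIP-seq library came from a clone of them with inducible FLAG-tagged wt-Cdx1 or wt-Cdx2 of mouse origin. Both libraries were prepared 20 h after withdrawal of DOX (0.5 µg/mL) from 10 pooled dishes. Formaldehyde (1%, 5 min) was used for fixation and micrococcal nuclease (MNase, 50 min) for digestion to about 150 bp, followed by anti-FLAG beads. There was 1 library per factor, and neither an input library nor a library without the tagged protein was analyzed here. The sample descriptions speak of cells that lack the tagged protein in the presence of DOX, whereas the treatment notes state withdrawal, and the libraries are taken here as induced. Expression was ectopic, so occupancy by the cells' own CDX1 and CDX2 was not measured. The amounts of the tagged proteins were not measured here, and the study's methods state that Cdx1 was induced faster than Cdx2 in these clones, so factor, protein amount and clone cannot be told apart in any comparison of the lists.

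CDX1 and CDX2 are caudal-type homeobox transcription factors that direct intestinal epithelial identity. Their homeodomains, the parts that contact DNA, are closely similar, and both factors prefer AT-rich sites. In ChIP-seq, fragments recovered with the factor pile up over a bound site, and MNase leaves fragments of about the size of 1 nucleosome. A site bound at a like level by both factors would be expected in both peak lists, subject to the depth of each library.

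The FLAG-wt-Cdx1 library had 16452141 kept tags and the FLAG-wt-Cdx2 library 13781541, a ratio of 0.838. A pileup of 15 with FLAG-wt-Cdx1 therefore corresponds to 12.6 fragments at the depth of FLAG-wt-Cdx2. The lowest pileup called was 5 in the FLAG-wt-Cdx1 list and 4 in the FLAG-wt-Cdx2 list. Coordinates are those of the deposited lists on GRCh37. Values in parentheses after a share are its 95% Wilson interval, and those after a pileup its 95% exact Poisson interval, both of which cover counting error only. With 1 library per factor, no difference could be tested against replicate error.

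Lone peaks made up 24.7% of the strong FLAG-wt-Cdx1 peaks (24.1 to 25.3). Among FLAG-wt-Cdx1 peaks of any pileup in the same regions, 55.8% had no FLAG-wt-Cdx2 summit within 1000 bp, so that the strong peaks were less often alone than the list as a whole. The share fell steadily with pileup. It was 65.8% (65.4 to 66.2) for peaks with 5 to 8 fragments and 45.3% (44.7 to 45.9) for those with 12 to 14. At exactly 15 fragments, 1738 of 4784 peaks were alone, or 36.3% (34.98 to 37.7). With 20 to 24 fragments the share was 14.7% (13.5 to 16.01), with 25 to 29 it was 6.31% (4.80 to 8.24), with 40 or more it was 1.01% (0.434 to 2.35), or 5 of 493 peaks. With 30 to 39 fragments it was 2.60% (1.42 to 4.73), an interval that overlapped that for 40 or more, whereas all other neighboring classes of the 11 plotted had intervals that did not overlap.

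**Figure D1:**
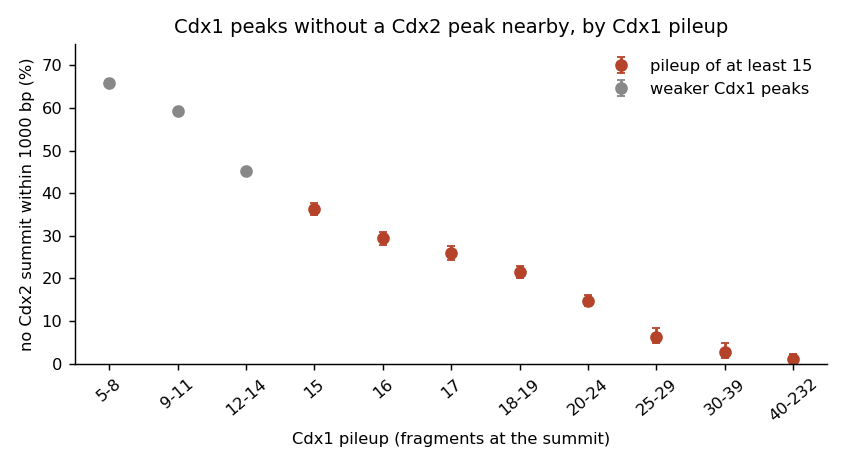
Share of FLAG-wt-Cdx1 peaks with no FLAG-wt-Cdx2 summit within 1000 bp (y axis, %) by FLAG-wt-Cdx1 pileup at the summit (x axis, fragments). Points are shares and bars 95% Wilson intervals. Red points are peaks of at least 15 fragments and gray points are weaker peaks, and the share falls from 65.8% at 5 to 8 fragments to 1.01% at 40 or more.

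Most lone peaks therefore lay close to the threshold. Of the 4589 lone peaks, 1738 had 15 fragments, 998 had 16 and 646 had 17, and 89.0% (88.1 to 89.9) had at most 19. Among the accompanied peaks, 70.4% (69.7 to 71.2) had at most 19. At the other end, 15 lone peaks had at least 30 fragments, against 862 accompanied peaks. The median pileup was 16 for lone and 17 for accompanied peaks, and the highest was 102 and 232, respectively. Just outside the rule, 2630 of 6863 peaks with 14 fragments were alone (38.3%, 37.2 to 39.5), a share close to that at 15. Just outside the distance limit, 114 strong peaks had their nearest FLAG-wt-Cdx2 summit at 901 to 1000 bp, and just inside it 91 had theirs at 1001 to 1100 bp. The threshold in distance thus cut through a sparse stretch, since 81.2% of the accompanied peaks (80.5 to 81.8) had a FLAG-wt-Cdx2 summit within 100 bp.

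The question of whether the FLAG-wt-Cdx2 library was deep enough to show a peak at these sites was addressed with the lowest pileup that the FLAG-wt-Cdx2 list called at a given local background. The local background is the mean coverage expected from the surrounding 10 kb, and never less than the genome-wide value. With no control, it comes from the same library and includes the fragments of the peak itself. This lowest pileup was 4 fragments at the genome-wide background, 6 at 2 times and 11 at 4 times that value. The background around each lone peak was taken as the median over the FLAG-wt-Cdx2 peaks within 50 kb, of which there were 9 at the median lone peak, and it was 1.11 times the genome-wide value at the median. The resulting limit was 4 fragments at 2668 lone peaks, 5 at 1536 and 6 at 293.

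The depth-scaled pileup exceeded the limit at 4576 of 4589 lone peaks, and it was at least 2 times the limit at 98.4% (98.0 to 98.8). At the median it was 3.14 times the limit, so a FLAG-wt-Cdx2 pileup under the limit was at most 0.318 of the depth-scaled FLAG-wt-Cdx1 pileup there. The Poisson interval of a pileup of 15 reaches down to 8.40, or 7.03 after scaling. When each pileup was replaced by this lower bound, 4556 lone peaks (99.3%, 99.0 to 99.5) lay above the limit. With the highest in place of the median FLAG-wt-Cdx2 background within 50 kb, an alternative chosen after the data were seen, 93.3% did. These counts carry several limits. The rule asks for at least 15 fragments, so the scaled lower bound was never under 7.03. Every lone peak with a limit of 4 to 7 fragments therefore had to pass. With the median background, limits of 4, 5, 6 and 7 made up 58.1%, 33.5%, 6.38% and 0.893% of lone peaks. The counts thus follow largely from the rule. The counting error of the FLAG-wt-Cdx2 pileup is not included, and scaling by kept tags did not match the accompanied peaks. Their median FLAG-wt-Cdx2 pileup was 11 at 15 FLAG-wt-Cdx1 fragments, where scaling gave 12.6. It was 78 at 40 or more, where scaling gave 49.4. The peaks were chosen for a high pileup in the same library, which the interval does not take into account, and the limit is the lowest pileup called, not one at which every site is called.

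At 33 lone peaks the lower bound did not exceed the limit. Because the limit rises with the FLAG-wt-Cdx2 background, a raised background follows from how these peaks were picked. Their FLAG-wt-Cdx2 background was 3.02 to 36.6 times the genome-wide value, with a median of 4.88, and their limits ran from 8 to 47 fragments. At these sites a FLAG-wt-Cdx2 peak of equal strength was not reliably detectable at this depth. They had a median fold enrichment of 3.76, against 8.16 over all lone peaks, where fold enrichment is the pileup over the local background, each with 1 added.

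The accompanied peaks show what FLAG-wt-Cdx2 pileups were seen where a call was made. Among the FLAG-wt-Cdx1 peaks with 15 to 17 fragments, 7294 were accompanied and 3382 were alone. At the accompanied ones the nearest FLAG-wt-Cdx2 peak had a median of 11 fragments, below the 13.4 fragments that scaling of FLAG-wt-Cdx1 gave at the median. The most frequent value was 10 fragments, at 762 peaks. Counts then fell toward the limit, with 639 peaks at 7 fragments, 300 at 6, 109 at 5 and 14 at 4. Altogether, 423 accompanied peaks (5.80%, 5.29 to 6.36) had a FLAG-wt-Cdx2 pileup of at most 6, although such low pileups made up 24.03% (23.8 to 24.2) of the FLAG-wt-Cdx2 list. At the same FLAG-wt-Cdx1 pileup there were 3382 lone peaks. Not every site with so few FLAG-wt-Cdx2 fragments is called, so these counts do not give the number of sites below the limit. How many lone peaks had an uncalled FLAG-wt-Cdx2 signal was not tested.

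**Figure D2:**
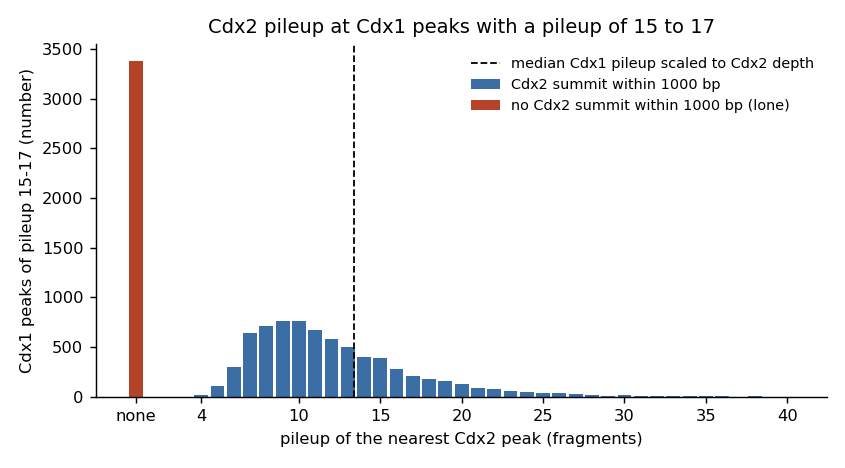
Number of FLAG-wt-Cdx1 peaks with a pileup of 15 to 17 (y axis) by the pileup of the nearest FLAG-wt-Cdx2 peak (x axis, fragments). The red bar at "none" is the 3382 lone peaks, blue bars are the 7294 accompanied peaks, of which 20 beyond 40 fragments are not drawn, and the dashed line at 13.4 is the median FLAG-wt-Cdx1 pileup scaled to FLAG-wt-Cdx2 depth. Blue bars peak at 10 and fall to 14 peaks at 4 fragments.

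At the accompanied peaks, the FLAG-wt-Cdx2 pileup rose with that of FLAG-wt-Cdx1, but unevenly. The median was 11 fragments at a FLAG-wt-Cdx1 pileup of 15 and 15 at pileups of 20 to 24, where scaling gave 17.6. At pileups of 40 or more it was 78, where scaling gave 49.4. Pileups below the scaled value were seen at 66.4% (64.7 to 68.0) of accompanied peaks with 15 fragments and at 12.1% (9.49 to 15.3) of those with 40 or more. The strongest FLAG-wt-Cdx1 sites, among which lone peaks were rarest, were thus also those with a relatively higher FLAG-wt-Cdx2 pileup.

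The rule was also turned around, and the share then depended on the pileup asked of FLAG-wt-Cdx2. At a pileup of at least 13, the whole number next above the depth-scaled threshold, 5494 of 21968 strong FLAG-wt-Cdx2 peaks had no FLAG-wt-Cdx1 summit within 1000 bp, or 25.0% (24.4 to 25.6). This interval overlapped that of FLAG-wt-Cdx1. At a pileup of at least 15, the number used for FLAG-wt-Cdx1 without scaling, 2188 of 12353 had none, or 17.7% (17.05 to 18.4), which lay below the share for FLAG-wt-Cdx1.

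Lone peaks were shorter than accompanied peaks. Their median length was 189 bp (95% interval of the median from order statistics, 188 to 191), and the middle 50% lay between 169 and 217 bp. The accompanied peaks had a median of 221 bp (220 to 223) and a middle range of 186 to 322 bp. Because length rises with pileup, the sets were also compared within classes of pileup. At 15 fragments the medians were 184 bp (182 to 185) for lone and 202 bp (200 to 205) for accompanied peaks. At 20 to 24 fragments they were 200 bp (197 to 206) and 236 bp (232 to 241). The lone peaks were the shorter set in all 5 pileup classes examined, with intervals of the medians that did not overlap. The class of 25 or more is not matched in pileup, as 488 of its 1590 accompanied peaks but 5 of its 64 lone peaks had at least 40 fragments.

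The difference lay mainly in long peaks. Lengths over 300 bp were found in 6.89% (6.19 to 7.66) of lone and 28.0% (27.2 to 28.7) of accompanied peaks, and lengths over 500 bp in 0.676% (0.476 to 0.957) and 10.4% (9.94 to 10.95). At exactly 15 fragments, 110 of 1738 lone peaks and 596 of 3046 accompanied peaks were over 300 bp, or 6.33% (5.28 to 7.57) and 19.6% (18.2 to 21.0). The summit lay closer to the middle of the interval in lone peaks, at a median of 11.5 bp from it against 14.5 bp at a pileup of 15. This offset was not scaled to length, so it is not shown to be separate from the difference in length.

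**Figure D3:**
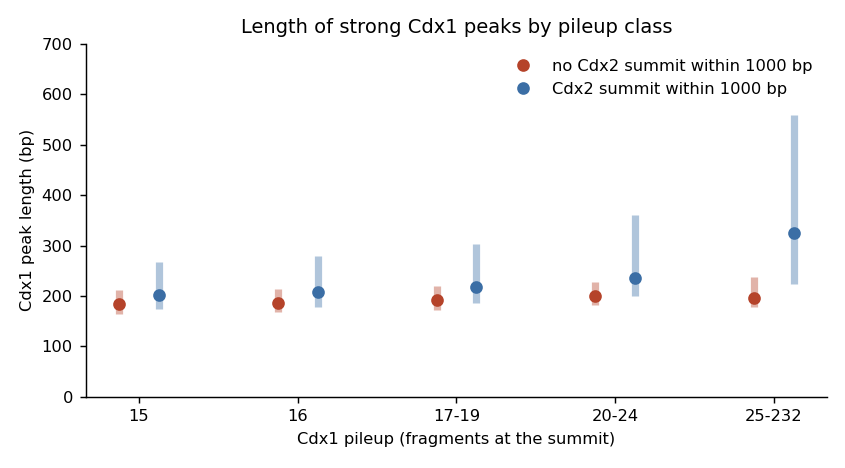
Length of strong FLAG-wt-Cdx1 peaks (y axis, bp) in classes of pileup (x axis, fragments). Points are medians and thick bars the middle 50% of peaks, with lone peaks in red and accompanied peaks in blue. Lone peaks have the lower median in each class, with 184 against 202 bp at 15 fragments and 200 against 236 bp at 20 to 24.

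The local FLAG-wt-Cdx1 background differed little between the sets. It was 1.43 times the genome-wide value at the median of lone peaks (1.41 to 1.44) and 1.48 times at that of accompanied peaks (1.48 to 1.49). At equal pileup of 15, the medians were 1.38 (1.35 to 1.39) and 1.36 (1.35 to 1.38), and their intervals overlapped. The genome-wide value itself was the background at 579 lone peaks (12.6%, 11.7 to 13.6) and at 9.76% (9.28 to 10.3) of accompanied peaks. More than 4 times that value was found at 68 lone peaks (1.48%, 1.17 to 1.87) and at 3.87% (3.56 to 4.20) of accompanied peaks.

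Although no FLAG-wt-Cdx2 summit lay within 1000 bp by definition, FLAG-wt-Cdx2 peaks were seldom far away. The median distance from a lone peak to the nearest FLAG-wt-Cdx2 summit was 4207 bp (4052 to 4372). It was at most 2000 bp for 20.0% of lone peaks (18.8 to 21.1), at most 10000 bp for 82.8% (81.6 to 83.8), and over 50000 bp for 11. Among the 101442 weaker FLAG-wt-Cdx1 peaks without a FLAG-wt-Cdx2 summit within 1000 bp, the median distance was 4966 bp (4931 to 4997), so that the lone peaks were closer to FLAG-wt-Cdx2 than these. The FLAG-wt-Cdx2 peak nearest to a lone peak had 8 fragments at the median and 4 to 144 over all lone peaks. In 4 of 4589 cases (0.0872%, 0.0339 to 0.224) the intervals of the lone peak and a FLAG-wt-Cdx2 peak still overlapped, because 1 or both were long.

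Outside the 1000 bp that the rule used, the surroundings of lone peaks were not poor in FLAG-wt-Cdx2 peaks. Between 1001 and 10000 bp from the summit, lone peaks had on average 1.68 FLAG-wt-Cdx2 peaks and 1.56 FLAG-wt-Cdx1 peaks, and accompanied peaks had 1.51 and 1.46. No FLAG-wt-Cdx2 peak was found in this ring at 17.2% of lone (16.2 to 18.4) and 21.7% of accompanied peaks (21.0 to 22.4). With only pileups of 15 to 17 in both sets, the averages for FLAG-wt-Cdx2 were 1.66 and 1.46, in the same order. Farther out, from 10001 to 50000 bp, the order for FLAG-wt-Cdx2 was turned around, with 7.06 peaks around lone and 7.30 around accompanied peaks, while FLAG-wt-Cdx1 peaks numbered 6.79 and 6.70. Per FLAG-wt-Cdx1 peak in this outer ring, there were 1.04 FLAG-wt-Cdx2 peaks around lone and 1.09 around accompanied peaks. Rings of neighboring peaks overlap, so these averages are over regions that are not independent.

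**Figure D4:**
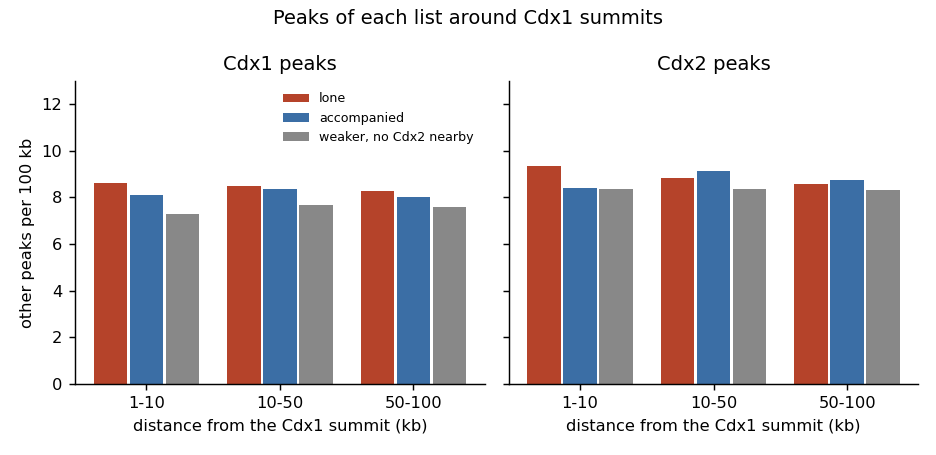
Mean number of other FLAG-wt-Cdx1 peaks (left) and FLAG-wt-Cdx2 peaks (right) per 100 kb (y axis) in rings around FLAG-wt-Cdx1 summits (x axis, distance in kb). Bars are lone peaks in red, accompanied peaks in blue and weaker FLAG-wt-Cdx1 peaks without FLAG-wt-Cdx2 within 1000 bp in gray. In the inner ring of the right panel, lone peaks have 9.35 FLAG-wt-Cdx2 peaks per 100 kb and accompanied peaks 8.39.

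Most lone peaks had no other lone peak close by. Another lone peak lay within 10 kb of 363 of them (7.91%, 7.16 to 8.73), and these formed 174 groups, of which 161 were pairs, 11 held 3 peaks and 2 held 4. This share rose to 17.7% with a pileup of at least 12 and to 35.4% with the block of chromosome 8 kept. The median distance to the nearest other lone peak was 165751 bp (157096 to 173630). This value depends on the number of peaks in the set, so nearness to any strong FLAG-wt-Cdx1 peak was compared as well. A strong peak of either kind lay within 10 kb of 21.1% (19.9 to 22.3) of lone and 23.9% (23.2 to 24.6) of accompanied peaks. Within 1000 bp, a strong neighbor was found for 1.98% (1.62 to 2.43) of lone and 6.32% (5.93 to 6.74) of accompanied peaks. Including weak neighbors, these shares were 10.22% (9.38 to 11.1) and 17.7% (17.1 to 18.3). The shares within 1000 bp are a description, since a FLAG-wt-Cdx1 neighbor with its own FLAG-wt-Cdx2 summit would often bring that summit inside the distance that the rule bars, and 72 of the 91 lone peaks with a strong neighbor there had a lone one. Of the 36 neighboring pairs of lone summits within 1000 bp, none was closer than 310 bp, 10 were under 500 bp apart and 26 at least 500 bp, with a median of 584 bp.

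Lone peaks were found on all 22 autosomes. Over the length between the outermost peaks of a chromosome, their density ranged from 0.948 per Mb on chromosome 22 to 3.39 per Mb on chromosome 19, with a median of 1.51. Chromosomes 19, 20 and 2 had the highest densities, at 3.39, 2.82 and 2.58 per Mb. The accompanied peaks were also densest on these 3 chromosomes, at 9.67, 8.67 and 7.12 per Mb, against a median of 4.77. As a share of strong peaks, the lone peaks were therefore not unusual there, at 25.9% (22.97 to 29.1), 24.5% (21.5 to 27.8) and 26.6% (24.9 to 28.4). The share was lowest on chromosomes 22 (14.8%, 10.7 to 20.1) and 16 (16.7%, 13.8 to 20.2), whose intervals lay below that of all autosomes, and highest on chromosomes 3 (28.7%, 26.2 to 31.3) and 11 (28.1%, 25.3 to 31.0). The copy number of the chromosomes in these cells was not measured here.

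**Figure D5:**
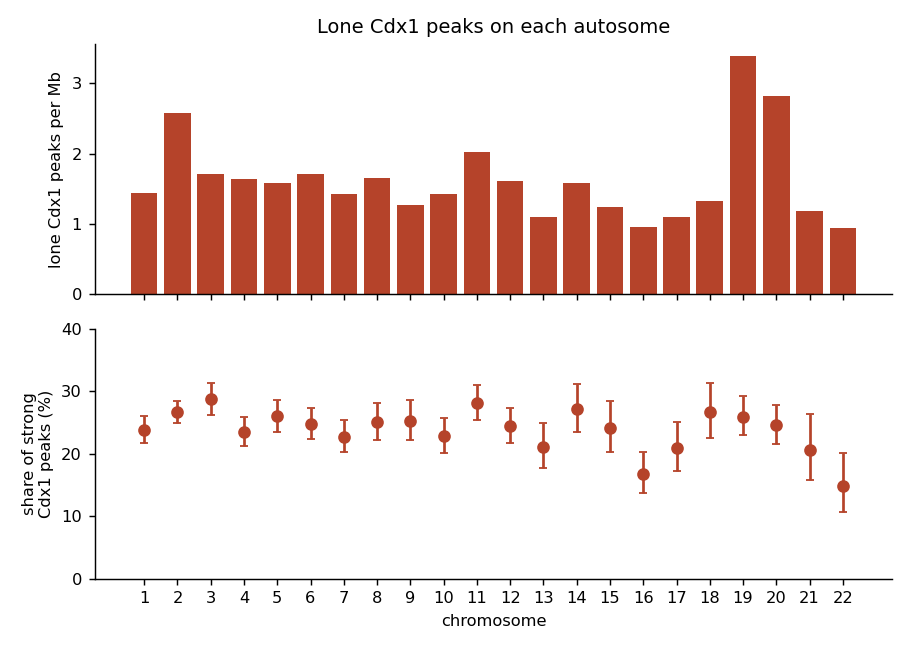
Lone FLAG-wt-Cdx1 peaks on each autosome (x axis). The upper panel gives their number per Mb and the lower panel their share of the strong FLAG-wt-Cdx1 peaks (%) with 95% Wilson intervals. Density is highest on chromosome 19 at 3.39 per Mb, whereas the share stays between 14.8% and 28.7%.

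On a finer scale, 680 of the 2713 bins of 1 Mb that held a peak of either list had no lone peak, and the mean was 1.69 per bin. The variance was 1.87 times the mean for lone peaks, 3.26 times for accompanied peaks and 6.71 times for all FLAG-wt-Cdx1 peaks in these bins, which have different means. At least 10 lone peaks were found in 18 bins, which together held 225 (4.90%). Of these bins, 9 lay on chromosome 2 between chr2:32000001 and 64000000 and 6 on chromosome 19 between chr19:41000001 and 52000000. The others were chr11:9000001-10000000 with 11 lone peaks, and chr8:139000001-140000000 and chr16:33000001-34000000 with 10 each. The bin on chromosome 8 directly adjoins the block that was left out. In these 18 bins the background was raised in both libraries, at 1.71 times the genome-wide value for FLAG-wt-Cdx1 and 1.65 times for FLAG-wt-Cdx2 at the median. In bins with 1 or 2 lone peaks it was 1.13 and 1.06 times. Not all of the 2713 bins entered these classes, and the class with 0 lone peaks held 659 bins. Dividing the FLAG-wt-Cdx1 background by that of FLAG-wt-Cdx2 gave a median of 1.00 in bins with 0 lone peaks and 1.03 with 1 or 2. This quotient was 1.07 with 3 to 5 lone peaks, 1.08 with 6 to 9 and 1.06 in the 18 bins. Its 5% and 95% points in the 18 bins were 0.801 and 1.31. The part of background in the number of lone peaks was not tested.

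The bin with the most lone peaks was chr2:56000001-57000000, with 19 lone and 16 accompanied peaks. It was followed by chr19:45000001-46000000 with 17 and 13, chr19:51000001-52000000 with 16 and 32, chr19:42000001-43000000 with 15 and 21, and chr2:57000001-58000000 with 14 and 20. In the bin on chromosome 2 with 19 lone peaks, 130 peaks of FLAG-wt-Cdx1 and 122 of FLAG-wt-Cdx2 were called in all. At chr19:45000001-46000000 the numbers were 121 and 79. The bins were picked for their number of lone peaks, and their share of lone peaks, 54.3% (38.2 to 69.5) and 56.7% (39.2 to 72.6) in these 2 bins, is a description.

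The densest stretches of 100 kb held 6 or 7 lone peaks. At chr19:51518390-51618389, 7 lone and 9 accompanied peaks were called among 24 peaks of FLAG-wt-Cdx1 and 16 of FLAG-wt-Cdx2. The pileups of the lone peaks there were 15, 20, 15, 17, 20, 19 and 17 in order of position, over 1.77 to 3.32 times the genome-wide background, and the nearest FLAG-wt-Cdx2 summits were 1213 to 7392 bp away. At chr21:11101986-11201985, the 7 lone peaks had pileups of 16 to 27 over 2.71 to 7.24 times the genome-wide background. At chr1:145005512-145105511, the 6 lone peaks had pileups of 16 to 23 over 3.30 to 6.04 times that value. In the last 2 stretches all nearest FLAG-wt-Cdx2 summits lay within 3397 bp. The stretch on chromosome 19 thus had the lowest background of the 3, at both ends of its range.

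Single lone peaks were then examined at the upper ends of the list. The highest fold enrichment, 15.6, was at chr5:94837171-94837404 (234 bp), with 27 fragments at the summit (17.8 to 39.3) over the genome-wide background. At the depth of FLAG-wt-Cdx2 this corresponds to 22.6 fragments, with a lower bound of 14.9 and a limit of 5. The nearest FLAG-wt-Cdx2 peak lay 9041 bp away with 11 fragments, although 10 FLAG-wt-Cdx2 peaks were called within 50 kb. The peak at chr9:29480065-29480267 had 26 fragments (16.98 to 38.1), a fold enrichment of 15.0 and a limit of 4, and its nearest FLAG-wt-Cdx2 peak, with 6 fragments, was 8129 bp away. At both sites the depth-scaled pileup was more than 4 times the limit.

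Next in fold enrichment was chr5:66786022-66786294, at 14.3 with 28 fragments (18.6 to 40.5) and a FLAG-wt-Cdx2 peak of 8 fragments 3801 bp away. The peak at chr3:105219075-105219282 had 30 fragments (20.2 to 42.8) and a fold enrichment of 14.1. Its nearest FLAG-wt-Cdx2 peak, 3493 bp away, was itself strong, with 30 fragments and a fold enrichment of 13.9, and a further FLAG-wt-Cdx1 peak was called 3475 bp away. Each factor thus had a strong peak near this place, but FLAG-wt-Cdx2 was not called at the lone summit. The peak at chr5:22834893-22835101 had 27 fragments and a fold enrichment of 13.8, with a FLAG-wt-Cdx2 peak of 7 fragments 3809 bp away.

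The other 5 of the 10 highest fold enrichments lay between 13.3 and 13.6. They were at chr22:34866784-34866967 with 25 fragments, chr21:37125085-37125288 with 24, chr22:26975640-26975885 with 29, chr7:46755490-46755675 with 23 and chr12:17694905-17695122 with 23. Over all 10, lengths were 184 to 273 bp, the background was 1.00 to 1.56 times the genome-wide value, limits were 4 or 5 fragments, and the depth-scaled lower bounds were 12.2 to 16.96. The nearest other lone peak was at least 193200 bp away, with a median of 322524 bp, against a median of 165751 bp over all lone peaks. Their low background follows in part from the ranking by fold enrichment, which divides by it.

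The 5 lone peaks with the highest pileup had backgrounds of 11.5 to 30.9 times the genome-wide value. The highest, 102 fragments (83.2 to 124), was at chr1:7628108-7629909, an interval of 1802 bp over 15.2 times the genome-wide background, with a fold enrichment of 7.84. The background there includes the fragments of this long peak itself. A FLAG-wt-Cdx2 peak of 1806 bp at chr1:7628115-7629920 covered nearly the same interval with 112 fragments. The peak counted as lone only because the summits lay 1025 bp apart. Its limit was 4 fragments, taken from the lower background of the FLAG-wt-Cdx2 peaks around it, and is too low for a site with such a background. The next were chr16:46406508-46406647 with 69 fragments and chr16:46409616-46409762 with 68, over 30.9 and 22.4 times the genome-wide background, at fold enrichments of 2.73 and 3.65. The 2 remaining were chr9:68417279-68417633 with 48 fragments and chr1:142539593-142539728 with 42, at fold enrichments of 4.81 and 2.90. At chr9:68417279-68417633 the limit, 5 fragments, was likewise low for a site over 11.5 times the genome-wide background. All 5 had a FLAG-wt-Cdx2 peak of 57 to 112 fragments within 1962 bp, and 2 of them, both on chromosome 1, overlapped its interval.

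Position near the longest stretch without any peak was examined as well. This stretch, found for each autosome from both lists and counting the start of the chromosome as an edge, was 3.00 to 21.1 Mb long. Within 2 Mb of its edges lay 2.83% of lone peaks (2.39 to 3.35) and 3.97% of accompanied peaks (3.66 to 4.31). Of the 15 lone peaks with at least 30 fragments, 9 lay there (60.0%, 35.7 to 80.2), against 22.2% (19.5 to 25.1) of the 862 accompanied peaks of that strength. These 2 sets differed in background, with medians of 11.3 and 3.61 times the genome-wide value. Among peaks over more than 4 times that value, 48.5% (37.1 to 60.2) of lone and 40.9% (36.8 to 45.0) of accompanied peaks lay there. The last 2 intervals overlapped. Of the 33 lone peaks not above the limit, 24 lay there. Of the 52 lone peaks with a fold enrichment of at least 12, 0 did, and a count of 0 allows a share of up to 5.77%, taken as 3 counts of the total. That bound includes the 2.83% of all lone peaks. Fold enrichment divides by local background, so ranking by it favors sites of low background, and the contrast with high pileups is a description. The lone peak of highest pileup lay 113857 kb from the stretch.

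The lone peak farthest from any FLAG-wt-Cdx2 summit was at chr9:41956746-41956953, at a distance of 515216 bp, with 15 fragments (8.40 to 24.7) over the genome-wide background and a fold enrichment of 8.90. The second, chr9:43155066-43155267, was 129002 bp away and had 19 fragments (11.4 to 29.7). Few peaks of either list were called around it, since the nearest other FLAG-wt-Cdx1 peak was 240182 bp away. The next 3 were chr14:28037070-28037280 at 81398 bp, chr5:29740603-29740758 at 73376 bp and chr9:30422419-30422573 at 67063 bp, with 16, 15 and 17 fragments. None of the 5 had a FLAG-wt-Cdx2 peak within 50 kb, so that their limit, 4 fragments, is that at the genome-wide background. Apart from chr9:43155066-43155267, another FLAG-wt-Cdx1 peak lay within 1721 to 27259 bp of them.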

How the data were processed

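The authors deposited 1 peak list per ChIP-seq library in 2 forms, checked to hold the same peaks. Per the file headers, MACS 2.0.10.20131216 was run on each library alone, with no control, with q-values up to 0.05 accepted and 1 tag kept per position. Per the labels, the build was GRCh37, and the submitters' processing notes name bcl2fastq 1.8.3, cutadapt 1.1 and Trimmomatic 0.32. The aligner is not stated in the sources used here, and names in the file headers mention both bowtie and BWA. The deposited values are the pileup signal in fragments (not scaled to depth), the fold enrichment as a ratio to local background, −log10 p-values and q-values, and a score of 10 times −log10 q. The background was recovered from pileup and fold enrichment, and the deposited −log10 p followed from it within 0.05 at all peaks.

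Distances are between summits. Depth was scaled by kept tags. The detection limit is the lowest FLAG-wt-Cdx2 pileup among peaks with a background within 5% of that around a site (at least 20 peaks). Functions were tested on simulated data. All steps ran in Python 3.11.15 with scipy 1.17.1, pandas 2.3.3, numpy 2.4.6 and, for plots, matplotlib 3.10.9.

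The peaks, measures and alternatives were chosen with earlier results of these data known. Named sites are the 10 lone peaks of highest fold enrichment, 5 of highest pileup, 5 farthest from FLAG-wt-Cdx2, the 5 fullest 1 Mb bins and the 3 fullest 100 kb stretches. Sequence and annotation of GRCh37 were not used here, so genes, CDX motifs and TSS distances are not reported.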

Additional observations from a re-analysis of the deposited data

How the results depend on the processing

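The alternatives were run for counts, shares and medians of the lone peaks, which have no sign and moved as listed below. Contrasts of lone peaks with accompanied or weaker peaks, such as those in length or distance, were not re-run. Whether an alternative would reverse such a contrast was not tested. Replicates could not be left out or paired. No paired analysis was possible because each factor had only 1 library. The cause of the changes below was not tested, except where the setting itself adds or removes peaks. With a window of 5000 bp the number of lone peaks was 1999, with a pileup of at least 12 it was 18042, with at least 20 it was 503, and with only FLAG-wt-Cdx2 peaks of −log10 q of at least 5 it was 8301. The other settings, including merging lone peaks within 1 kb (4553), kept it within 1.5 times.

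The share of strong peaks that were alone was 28.3% (500 bp), 10.8% (5000 bp), 37.4% (pileup 12), 10.8% (pileup 20), 29.5% (any overlap of intervals), 44.7% (−log10 q of 5) and 31.0% (block of chromosome 8 kept). The share above the depth-scaled limit was 99.95% (5000 bp), 96.7% (pileup 12), 97.8% (pileup 20), 99.5% (block kept) and 93.3% (highest background, chosen after the data were seen). With −log10 q of at least 5 it was 13.95%, as this threshold itself raises the limit. The share with another lone peak within 10 kb was 5.65% (5000 bp), 17.7% (pileup 12), 5.96% (pileup 20), 9.65% (overlap), 12.1% (−log10 q of 5) and 35.4% (block kept). The median length was 176 bp (pileup 12), 200 bp (pileup 20), 196 bp (−log10 q of 5) and 186 bp (block kept). The median background was 1.44 (500 bp), 1.28 (5000 bp), 1.31 (pileup 12), 1.66 (pileup 20), 1.44 (overlap) and 1.77 (block kept) times the genome-wide value.

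Alternatives for CDX motifs and TSS distances were not run, since sequence and annotation of GRCh37 were not used here. FLAG-wt-Cdx2 binding under 4 fragments was not detectable at this depth.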

Other observations

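Outside the regions of the rule, the block of chromosome 8 that was left out held 3346 strong FLAG-wt-Cdx1 peaks, of which 2211 (66.1%, 95% Wilson interval, 64.5 to 67.7) had no FLAG-wt-Cdx2 summit within 1000 bp. These had a median background of 4.00 times the genome-wide value, a median fold enrichment of 5.00 and a median length of 174 bp. On chromosome X, 24 strong FLAG-wt-Cdx1 peaks (23.8% of those there, 16.5 to 32.9) had none, an interval that includes the share on the autosomes.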
